A study of Mus musculus with 8 samples.

Results

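Integrins are the receptors that fasten a cell to the matrix around it, and laminins and nidogens build the sheet-like basement membrane that many of them bind. The 29 mouse genes described here are 11 integrin alpha chains, 8 integrin beta chains, 8 laminin chains and 2 nidogens. They were taken by gene symbol from the deposited expression table, where all 29 were found among 49315 gene identifiers. The rule lists them by name, with no cut on a measured value.

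Polyadenylated RNA was measured in 4 lines of mouse pancreatic ductal adenocarcinoma (mPDAC) cells, named 6694c2, 2838c3, 6499c4 and 6419c5, all grown in one serum-containing medium. Each line has 1 wild-type (WT) library and 1 C1galt1c1-KO library, whose title carries the suffix Tn, so there are 8 libraries and 4 per genotype. C1galt1c1 (Cosmc) is the chaperone of the enzyme that extends O-glycans on membrane and secreted proteins, and cells that lack it expose the short Tn glycan. The study asks which transcripts differ once that extension is lost. How the gene was disrupted, and whether a KO culture is a clone or a pool, is not stated in the sources used here. Both genotypes of a line share that line's own tumour background, and a p-value over the 4 lines measures only the spread between them.

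An integrin is a pair of 1 alpha and 1 beta chain, and neither chain reaches the cell surface well alone. The pair decides the ligand: some bind laminin, others collagen, and others the RGD motif found in fibronectin and vitronectin. A laminin is an assembly of an alpha, a beta and a gamma chain, and nidogens link it to the collagen IV network. In pancreatic duct cells this contact with the basement membrane anchors the basal side of the epithelium.

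Values are TPM, transcript shares corrected for gene length that sum to 1000000 over a library, so levels can be compared between genes. TPM carry no read depth, and the depth behind each value is not known here. Of 8 epithelial and ductal markers, 7 were at 1 TPM or more in all libraries, with summed levels of 13781 to 20030 TPM in WT and 13359 to 24156 TPM in KO. Markers of other cell types were low: 4 of 7 fibroblast markers stayed under 1 TPM in all libraries, with sums of 3.44 to 8.59 TPM in WT and 4.19 to 6.35 TPM in KO. The same held for 4 of 6 endothelial markers, with sums of 9.91 to 19.1 TPM in WT and 5.52 to 14.5 TPM in KO, and for 6 of 7 acinar and islet markers, with sums of at most 2.72 TPM and Cpa1, Ins1, Ins2 and Gcg at 0 in all libraries. In bulk libraries, fewer cells of a type and less RNA per cell cannot be told apart. C1galt1c1 itself stood at 37.0 to 54.2 TPM in WT and 10.9 to 19.0 TPM in KO libraries. A pair of KO libraries stand apart: identifiers without a gene name made up 12.5% of TPM in 6694c2 KO and 9.69% in 6419c5 KO, against 0.713% to 1.33% in the 6 others. The median KO minus WT difference over the 12900 genes tested was -0.15 on the log2(TPM + 1) scale, a scale that understates changes of low genes. Differences between genotypes are given relative to this median or, within a line, to the line's own median of -0.23 in 6694c2, -0.08 in 2838c3, -0.11 in 6499c4 and -0.16 in 6419c5. Test p-values come from the differences without this shift.

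Most of the genes were expressed throughout, and a small set was near 0. Of the 29 genes, 16 were at 10 TPM or more in all 8 libraries, and 7 stayed under 1 TPM in all of them. These 7 were the alpha chains Itga4, Itga8, Itga9 and Itga11, the beta chain Itgb8, and the laminin chains Lama1 and Lama4, with a highest value of 0.671 TPM for Itga4. Itga8 ranged from 0 to 0.0752 TPM, Itga9 from 0.0102 to 0.0493 TPM and Itga11 from 0 to 0.321 TPM. Itgb8 ranged from 0.008 to 0.587 TPM, Lama1 from 0 to 0.0165 TPM and Lama4 from 0 to 0.151 TPM. A filter of at least 1 TPM in at least 4 libraries kept 21 genes for testing. It left out the 7 low genes and Itgb2, the beta chain of leukocyte integrins, which ranged from 0.0794 to 2.24 TPM and passed 1 TPM only in the 2 libraries of 6694c2.

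**Figure D1:**
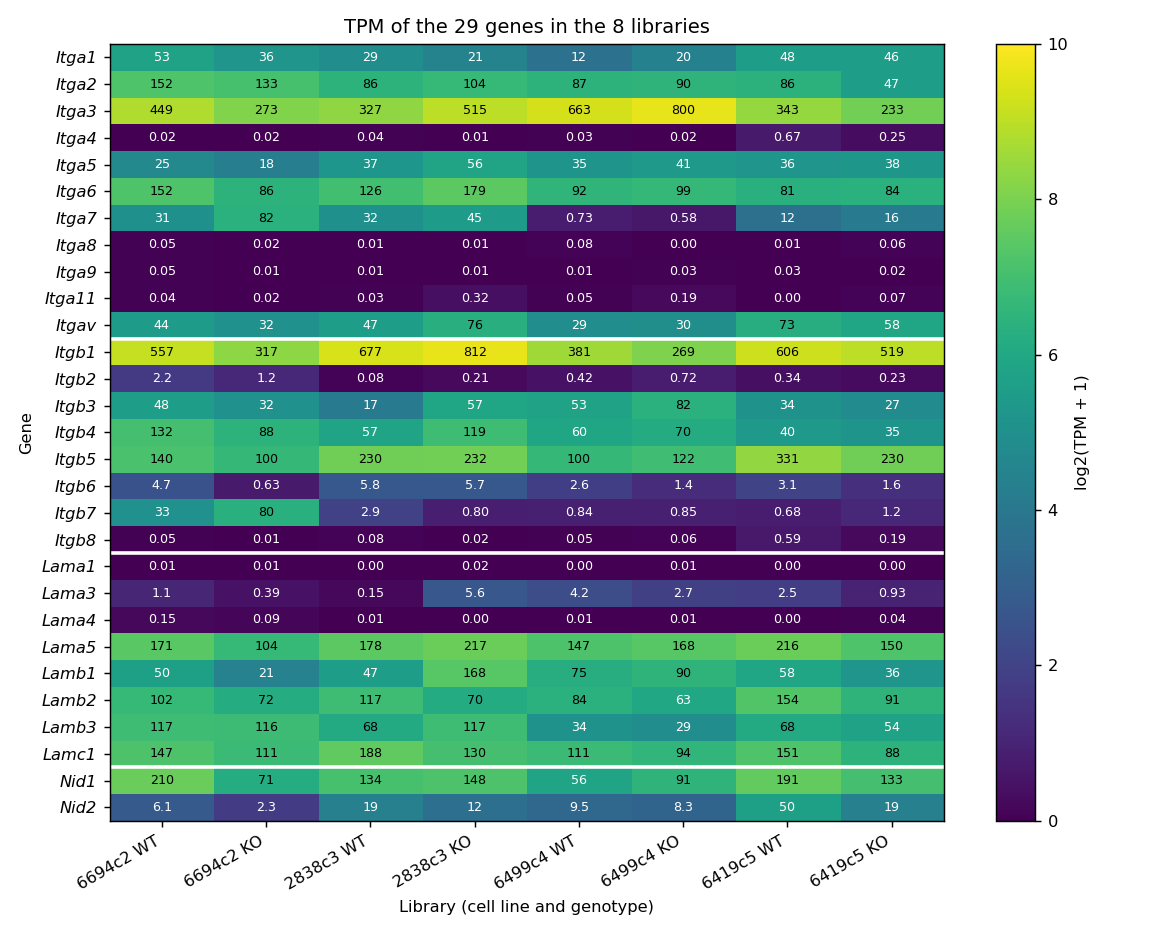
Heat map of TPM for the 29 genes (rows, grouped into alpha chains, beta chains, laminins and nidogens) in the 8 libraries (columns), with colour on a log scale. Itga3 is the highest alpha chain and Itgb1 the highest beta chain of each library, and Itgb7 exceeds 3 TPM only in line 6694c2.

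Among alpha chains Itga3 led. Itga3, whose pair with Itgb1 binds laminins of the epithelial basement membrane, stood at 449 (WT) and 273 TPM (KO) in 6694c2, 327 (WT) and 515 TPM (KO) in 2838c3, 663 (WT) and 800.3 TPM (KO) in 6499c4, and 343 (WT) and 233 TPM (KO) in 6419c5. It made up 41.2% to 74.1% of the summed alpha chain TPM, and both libraries of 6499c4 lay above all others. Itga6, a laminin receptor chain that can pair with Itgb1 or Itgb4, stood at 152 (WT) and 86.4 TPM (KO) in 6694c2, 126 (WT) and 179 TPM (KO) in 2838c3, 92.2 (WT) and 99.1 TPM (KO) in 6499c4, and 81.3 (WT) and 83.6 TPM (KO) in 6419c5. Its WT and KO libraries overlapped, and it did not pass the F-test across lines (limma, adjusted p = 0.226). Itga7, a laminin receptor chain best known from skeletal muscle, stood at 31.4 (WT) and 82.2 TPM (KO) in 6694c2, 31.6 (WT) and 44.6 TPM (KO) in 2838c3, 0.73 (WT) and 0.578 TPM (KO) in 6499c4, and 11.8 (WT) and 16.4 TPM (KO) in 6419c5. Both 6499c4 libraries were under 1 TPM, while those of 6694c2 and 2838c3 were all above 31 TPM.

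Itga7 differed between lines by more than the spread within them (limma F-test on the line terms, adjusted p = 0.00085). In this test the WT and KO libraries are the 2 values of a line, with genotype as a term. Against the mean of the other 3 lines, the log2 difference of Itga7 was -4.23 (SE 0.28, limma adjusted p = 0.00074) in 6499c4. It was 2.40 (SE 0.28, limma adjusted p = 0.00476) in 6694c2 and 1.83 (SE 0.28, limma adjusted p = 0.0153) in 2838c3. Without line 6499c4 the F-test of Itga7 gave an adjusted limma p of 0.0548. Itga7 (ENSMUSG00000025348; chromosome 10, 128769621 to 128794169, GRCm39, plus strand) shares 27 exon bases, 0.326% of its own, with Tmt1b on the opposite strand. That gene was looked up after its values were seen. Tmt1b stood at 34.1 (WT) and 110.1 TPM (KO) in 6694c2, 15.1 (WT) and 19.7 TPM (KO) in 2838c3, 1.16 (WT) and 1.08 TPM (KO) in 6499c4, and 35.4 (WT) and 53.5 TPM (KO) in 6419c5, so both genes were lowest in 6499c4 and highest in the KO library of 6694c2. Whether the counting used strand is not stated in the sources used here, and the part of shared reads was not tested.

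The collagen receptor chains were present in all lines. Itga2, which pairs with Itgb1, stood at 152 (WT) and 133 TPM (KO) in 6694c2, 86.2 (WT) and 104 TPM (KO) in 2838c3, 86.9 (WT) and 89.7 TPM (KO) in 6499c4, and 85.9 (WT) and 47.0 TPM (KO) in 6419c5. Itga1, the other collagen receptor chain expressed here, stood at 53.0 (WT) and 36.1 TPM (KO) in 6694c2, 29.1 (WT) and 21.4 TPM (KO) in 2838c3, 12.3 (WT) and 19.8 TPM (KO) in 6499c4, and 48.0 (WT) and 46.3 TPM (KO) in 6419c5. Itga2 was highest in both 6694c2 libraries, and Itga1 had its 2 lowest values in 6499c4. Across lines Itga1 passed the F-test (limma, adjusted p = 0.0387), and 6499c4 was lower than the other lines, with a log2 difference of -1.20 (SE 0.25, limma adjusted p = 0.0385). That F-test did not pass without 6499c4 (limma adjusted p = 0.123), without 6419c5 (limma adjusted p = 0.119), without 6694c2 and 6419c5 together (limma adjusted p = 0.293) or with no filter on low values (limma adjusted p = 0.102). About 10.2% of the exon bases of Itga1 overlap Mocs2 on the opposite strand, which stood at 4.12 to 10.6 TPM.

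Chains that bind RGD ligands were of middle level. Itga5, which forms the main fibronectin receptor with Itgb1, stood at 25.4 (WT) and 18.4 TPM (KO) in 6694c2, 37.1 (WT) and 56.3 TPM (KO) in 2838c3, 34.7 (WT) and 40.6 TPM (KO) in 6499c4, and 36.05 (WT) and 38.4 TPM (KO) in 6419c5. Itgav, the alpha partner of Itgb1, Itgb3, Itgb5, Itgb6 and Itgb8, stood at 43.7 (WT) and 32.4 TPM (KO) in 6694c2, 47.1 (WT) and 75.6 TPM (KO) in 2838c3, 29.01 (WT) and 29.7 TPM (KO) in 6499c4, and 73.2 (WT) and 57.7 TPM (KO) in 6419c5. Both had their highest value in the 2838c3 KO library and overlapped between genotypes. Neither passed the F-test across lines, with an adjusted limma p of 0.102 for Itga5 and 0.0816 for Itgav.

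Itgb1, the beta chain with the most partners, exceeded every other beta chain in each library. It stood at 557 (WT) and 317 TPM (KO) in 6694c2, 677 (WT) and 812 TPM (KO) in 2838c3, 381 (WT) and 269 TPM (KO) in 6499c4, and 606 (WT) and 519 TPM (KO) in 6419c5, which was 49.3% to 68.4% of the summed beta chain TPM. Itgb5, a vitronectin receptor chain that pairs with Itgav, stood at 140.1 (WT) and 100.4 TPM (KO) in 6694c2, 229.6 (WT) and 232 TPM (KO) in 2838c3, 99.6 (WT) and 122 TPM (KO) in 6499c4, and 331 (WT) and 229.6 TPM (KO) in 6419c5. All 4 libraries of 2838c3 and 6419c5 were above all 4 of 6694c2 and 6499c4. Itgb5 passed the F-test across lines (limma, adjusted p = 0.0261), and 6419c5 was higher than the other lines by a log2 difference of 0.93 (SE 0.21, limma adjusted p = 0.0352). The F-test did not pass without 6499c4 (limma adjusted p = 0.0722), without 6419c5 (limma adjusted p = 0.109) or with no filter on low values (limma adjusted p = 0.0704).

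The other expressed beta chains were lower. Itgb4, which joins Itga6 in the hemidesmosome that ties keratin filaments to the basement membrane, stood at 132 (WT) and 88.3 TPM (KO) in 6694c2, 56.6 (WT) and 119 TPM (KO) in 2838c3, 59.9 (WT) and 69.9 TPM (KO) in 6499c4, and 40.5 (WT) and 34.8 TPM (KO) in 6419c5. Galk1, at 178 to 372 TPM, overlaps 14.9% of the exon bases of Itgb4 from the opposite strand. Itgb3, another partner of Itgav, stood at 48.3 (WT) and 32.0 TPM (KO) in 6694c2, 17.0 (WT) and 57.1 TPM (KO) in 2838c3, 53.2 (WT) and 82.0 TPM (KO) in 6499c4, and 33.9 (WT) and 27.4 TPM (KO) in 6419c5. Itgb6, an epithelial partner of Itgav known for activating latent TGF-beta, had no library above 10 TPM. It stood at 4.69 (WT) and 0.635 TPM (KO) in 6694c2, 5.79 (WT) and 5.69 TPM (KO) in 2838c3, 2.63 (WT) and 1.4 TPM (KO) in 6499c4, and 3.12 (WT) and 1.61 TPM (KO) in 6419c5, with its lowest value in the KO library of 6694c2. None of Itgb3, Itgb4 and Itgb6 passed the F-test across lines, with adjusted limma p-values of 0.332, 0.0966 and 0.17.

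Seen as pairs, 17 known alpha and beta combinations could be formed from the listed genes. Taking the lower chain as the limit, 9 of them had both chains at 1 TPM or more in all 8 libraries, 2 in some libraries and 6 in none. The lower chain of Itga3 with Itgb1 stood at 233 to 515 TPM, the highest range among these pairs. It was 81.3 to 179 TPM for Itga6 with Itgb1, 47.0 to 152 TPM for Itga2 with Itgb1, and 34.8 to 132 TPM for Itga6 with Itgb4. The Itgav pairs stood at 29.01 to 75.6 TPM with Itgb5 or Itgb1 and at 17.0 to 57.1 TPM with Itgb3. The 2 pairs present in part were Itga7 with Itgb1, in 6 libraries, and Itgav with Itgb6, in 7. A transcript level says nothing of how a chain that has several partners is shared among them.

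Itgb7 had the widest range between lines among the beta chains, and its usual partners were close to 0. Itgb7, which pairs with Itga4 or Itgae in the homing receptors of gut lymphocytes, stood at 32.6 (WT) and 80.3 TPM (KO) in 6694c2, 2.89 (WT) and 0.799 TPM (KO) in 2838c3, 0.837 (WT) and 0.846 TPM (KO) in 6499c4, and 0.676 (WT) and 1.2 TPM (KO) in 6419c5. Both 6694c2 libraries were above all 6 others, and Itgb7 reached 13.0% of the summed beta chain TPM in the KO library. Against the mean of the other 3 lines, 6694c2 was higher by a log2 difference of 4.63 (SE 0.42, limma adjusted p = 0.0021), and the F-test across lines gave an adjusted limma p of 0.00331. Itgb7 entered the test with exactly 4 libraries at 1 TPM or more, 2 of them from 6694c2, so a difference between lines was built into its being tested. Without 6694c2 it was not tested. Its partner Itga4 stood at 0.0163 and 0.019 TPM in 6694c2, with a highest value of 0.671 TPM in 6419c5 WT. Itgae, looked up after its values were seen, stood at most at 0.449 TPM. The pan-leukocyte marker Ptprc stood at 0.0124 and 0 TPM and the T cell marker Cd3e at 0 TPM in the 2 libraries of 6694c2. Of 7 immune markers 6 stayed under 1 TPM in all libraries, and their sum was 6.09 to 14.6 TPM in WT and 8.12 to 28.5 TPM in KO, nearly all of it Cd68.

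The promoters of the 2 chains are shown because the pair is known from lymphocytes and in 6694c2 only its beta chain was above 1 TPM. They are the 250 bases before the start in the RefSeq table, build GRCm38.p6, written 5′ to 3′ on the gene's strand. Capitals mark matches, on either strand, to GGGCGG (the GC box), TATAAA (the TATA box), TGANTCA (a motif of AP-1 factors), GGAATG (a motif of TEAD factors) or CACGTG (the E-box). No 2 matches overlap in the sequences shown.
Itgb7 (chr15:102231936-102232185, minus strand): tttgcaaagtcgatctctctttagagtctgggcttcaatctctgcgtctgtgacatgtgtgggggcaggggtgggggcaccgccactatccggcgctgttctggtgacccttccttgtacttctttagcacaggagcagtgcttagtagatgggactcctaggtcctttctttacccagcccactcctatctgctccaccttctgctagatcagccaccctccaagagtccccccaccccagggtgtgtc
Itga4 (chr2:79255176-79255425, plus strand): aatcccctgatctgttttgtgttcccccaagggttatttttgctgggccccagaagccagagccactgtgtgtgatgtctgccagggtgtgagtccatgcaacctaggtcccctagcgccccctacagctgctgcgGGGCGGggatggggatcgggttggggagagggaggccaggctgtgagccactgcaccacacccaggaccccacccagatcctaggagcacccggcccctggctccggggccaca
The Itgb7 promoter holds none of the 5 motifs and 5 CG dinucleotides, with 56.0% G and C. The Itga4 promoter holds 1 GC box and 6 CG dinucleotides, with 64.0% G and C. The median promoter of the table holds 6 CG dinucleotides and 52.4% G and C. In GRCm39 the annotation places Itgb7 (ENSMUSG00000001281) on chromosome 15, 102124429 to 102140379, and Itga4 on chromosome 2, 79085660 to 79163467.

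**Figure D2:**
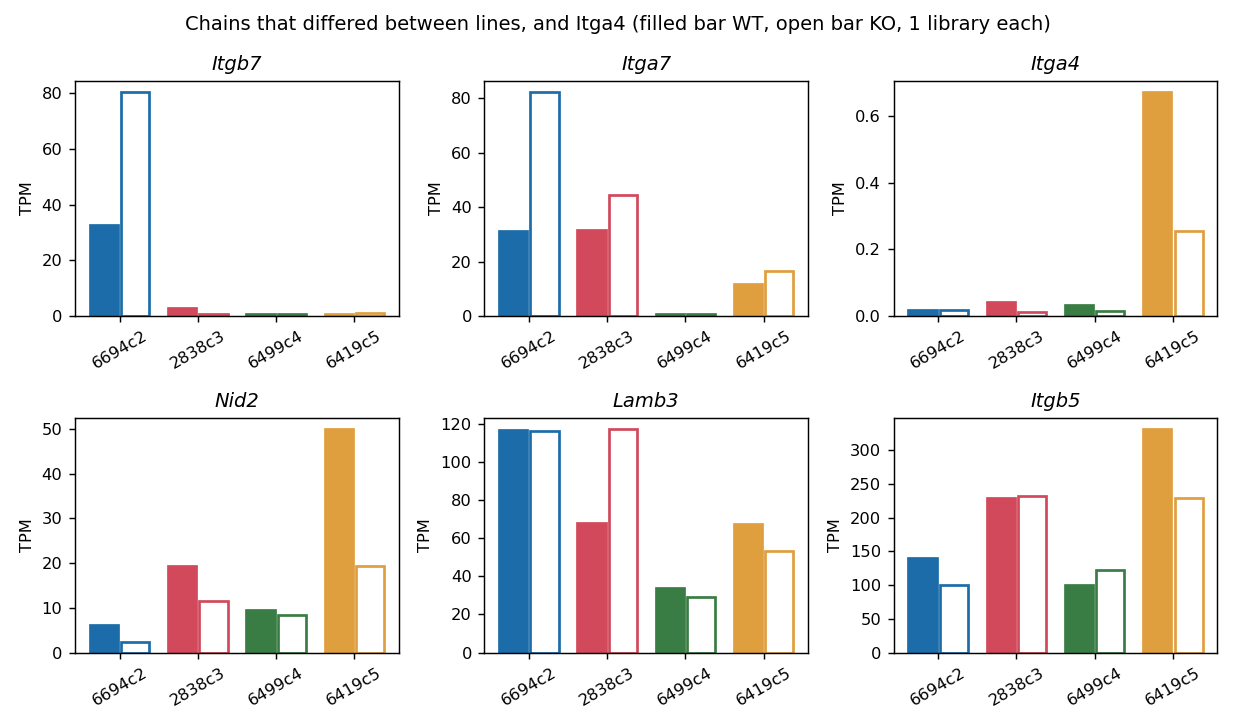
TPM of Itgb7, Itga7, Itga4, Nid2, Lamb3 and Itgb5 in each line, with filled bars for WT and open bars for KO libraries, 1 library per bar and no error bars. Itgb7 is high in 6694c2 alone, Itga7 is under 1 TPM in 6499c4, and Nid2 is highest in the WT library of 6419c5.

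Lama5 was the main laminin alpha chain of these cells, with Lamc1 as its gamma chain. Lama5, the alpha chain of the main adult epithelial laminins, stood at 171 (WT) and 104 TPM (KO) in 6694c2, 178 (WT) and 217 TPM (KO) in 2838c3, 147 (WT) and 168 TPM (KO) in 6499c4, and 216 (WT) and 150.0 TPM (KO) in 6419c5. It made up 97.2% to 99.9% of the summed laminin alpha chain TPM. Lama3, the alpha chain of the laminin under hemidesmosomes, stayed under 10 TPM and ranged from 0.15 to 5.59 TPM, highest in the 2838c3 KO library. Lamc1, the gamma chain that joins Lama5 and a beta chain, stood at 147 (WT) and 111 TPM (KO) in 6694c2, 188 (WT) and 129.98 TPM (KO) in 2838c3, 111 (WT) and 93.6 TPM (KO) in 6499c4, and 151 (WT) and 88.0 TPM (KO) in 6419c5, lower in KO than in WT in each line.

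Lamb3, the beta chain that joins Lama3 in the hemidesmosome laminin, was much higher than Lama3. It stood at 117 (WT) and 116 TPM (KO) in 6694c2, 68.2 (WT) and 117 TPM (KO) in 2838c3, 33.7 (WT) and 29.1 TPM (KO) in 6499c4, and 67.6 (WT) and 53.5 TPM (KO) in 6419c5. The 2 libraries of 6499c4 were the lowest, and 6694c2 and the 2838c3 KO library were close together at the top. Lamb3 passed the F-test across lines (limma, adjusted p = 0.0212), with a log2 difference from the other lines of -1.42 (SE 0.24, limma adjusted p = 0.017) in 6499c4 and 1.06 (SE 0.24, limma adjusted p = 0.0377) in 6694c2. The F-test did not pass without 6694c2 (limma adjusted p = 0.0591), without 6499c4 (limma adjusted p = 0.218) or with no filter on low values (limma adjusted p = 0.0661).

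The 2 beta chains that can join Lama5 and Lamc1 had different orders in different libraries. Lamb1, the widespread beta chain, stood at 50.3 (WT) and 20.9 TPM (KO) in 6694c2, 47.2 (WT) and 168 TPM (KO) in 2838c3, 74.5 (WT) and 90.2 TPM (KO) in 6499c4, and 58.0 (WT) and 35.7 TPM (KO) in 6419c5. Lamb2, the beta chain known from kidney, muscle and nerve basement membranes, stood at 102 (WT) and 71.8 TPM (KO) in 6694c2, 117 (WT) and 70.5 TPM (KO) in 2838c3, 83.6 (WT) and 62.8 TPM (KO) in 6499c4, and 154 (WT) and 90.5 TPM (KO) in 6419c5. Lamb2 exceeded Lamb1 in 6 libraries, and Lamb1 exceeded Lamb2 in the KO libraries of 2838c3 and 6499c4. The ratio of Lamb1 to Lamb2 TPM was 0.493 in WT and 0.291 in KO of 6694c2, and 0.404 and 2.38 in 2838c3. It was 0.892 and 1.44 in 6499c4, and 0.377 and 0.395 in 6419c5. The ratio was higher in KO in 3 of 4 lines and lower in 6694c2. A ratio within a library does not move with the library's share of unnamed RNA.

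The promoters of Lamb1 and Lamb2 are shown, with the same marking, because the 2 chains take the same place in a laminin and moved differently within a line.
Lamb1 (chr12:31265043-31265292, plus strand): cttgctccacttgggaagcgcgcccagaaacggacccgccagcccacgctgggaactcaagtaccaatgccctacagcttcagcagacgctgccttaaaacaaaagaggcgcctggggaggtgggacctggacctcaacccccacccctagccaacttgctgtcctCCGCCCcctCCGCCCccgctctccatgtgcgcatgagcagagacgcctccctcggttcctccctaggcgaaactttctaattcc
Lamb2 (chr9:108479612-108479861, plus strand): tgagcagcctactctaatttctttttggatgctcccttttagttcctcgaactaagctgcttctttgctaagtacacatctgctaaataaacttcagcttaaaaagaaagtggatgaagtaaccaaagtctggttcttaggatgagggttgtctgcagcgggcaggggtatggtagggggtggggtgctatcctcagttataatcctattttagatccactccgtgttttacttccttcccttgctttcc
The Lamb1 promoter holds 2 GC boxes and 14 CG dinucleotides, with 62.0% G and C. The Lamb2 promoter holds none of the 5 motifs and 3 CG dinucleotides, with 43.6% G and C. Of the 29 genes 19 were found in the table, with 22 promoters. The GC box was in 9 of these 22 and in 32.7% of the 32851 promoters of the table. The TEAD motif was in 3 of the 22 and in 12.6% of the table. The TATA box was in 0 of the 22 and 12.4% of the table, the AP-1 motif in 0 and 6.75%, and the E-box in 0 and 6.02%. The genes without an entry were Itga6, Itga7, Itgb2, Itgb3, Itgb4, Lama1, Lama3, Lama4, Lamc1 and Nid2. In GRCm39 the annotation places Lamb1 on chromosome 12, 31315030 to 31379658, and Lamb2 on chromosome 9, 108356935 to 108367729, both on the plus strand.

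**Figure D3:**
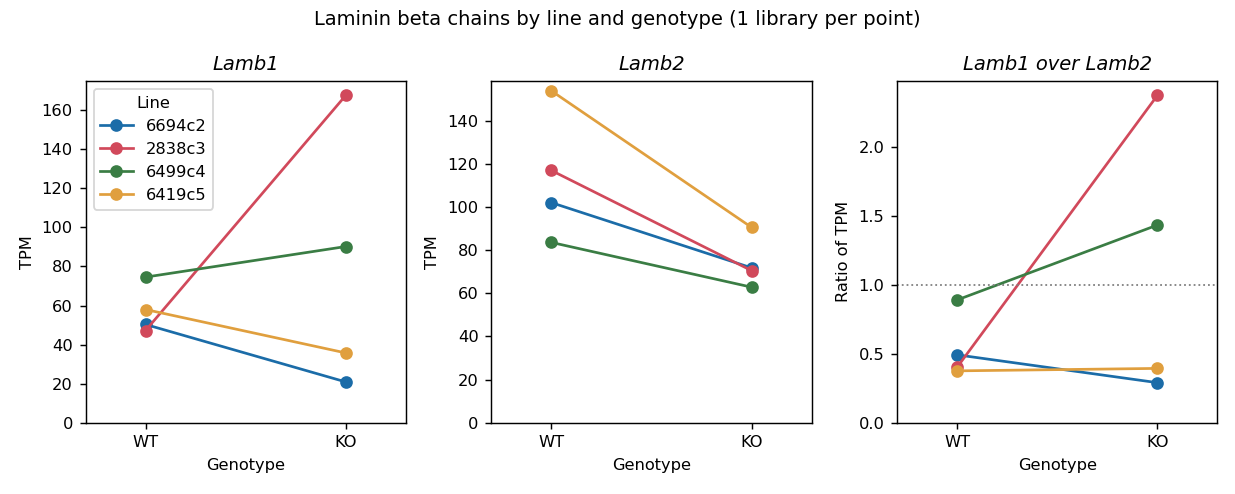
TPM of Lamb1 and of Lamb2 and the ratio of Lamb1 to Lamb2 by line, with 1 point per WT and per KO library and no error bars. Lamb2 is lower in KO in each line, Lamb1 is higher in KO in 2838c3 and 6499c4, and the ratio reaches 2.38 in the 2838c3 KO library.

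Of the nidogens, Nid1 was the higher in all libraries. It stood at 210.0 (WT) and 71.3 TPM (KO) in 6694c2, 134 (WT) and 148 TPM (KO) in 2838c3, 55.6 (WT) and 90.6 TPM (KO) in 6499c4, and 191 (WT) and 133 TPM (KO) in 6419c5, and made up 79.2% to 97.2% of the summed nidogen TPM. Nid2 stood at 6.14 (WT) and 2.3 TPM (KO) in 6694c2, 19.3 (WT) and 11.6 TPM (KO) in 2838c3, 9.52 (WT) and 8.32 TPM (KO) in 6499c4, and 50.0 (WT) and 19.4 TPM (KO) in 6419c5. Nid2 was lowest in 6694c2 and highest in 6419c5 WT, and its KO value was below its WT value in each line. Nid2 passed the F-test across lines (limma, adjusted p = 0.00709), with a log2 difference from the other lines of 1.82 (SE 0.25, limma adjusted p = 0.00655) in 6419c5 and -1.83 (SE 0.25, limma adjusted p = 0.00832) in 6694c2. The F-test of Nid2 did not pass without 6419c5 (limma adjusted p = 0.0578) or without 6694c2 and 6419c5 together (limma adjusted p = 0.212). Rtraf, at 120 to 249 TPM, overlaps 11.8% of the exon bases of Nid2 from the opposite strand, and the part of its reads was not tested. Nid2 (ENSMUSG00000021806) lies on chromosome 14, 19801298 to 19861855 in GRCm39.

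Counted together, 6 of the 21 genes tested differed between lines in the F-test, against 16.9% of all 12900 genes. They were Itga1, Itga7, Itgb5, Itgb7, Lamb3 and Nid2. For Itgb7 a difference between lines was built into its being tested, which holds for its single-line calls below too. With a line left out the count moved together with the share over all genes: it was 4 without 6694c2 (11.5% of all genes), 11 without 2838c3 (29.1%), 2 without 6499c4 (5.87%) and 3 without 6419c5 (5.83%). In single lines against the mean of the other 3, line 6694c2 was higher for Itgb7, Itga7 and Lamb3 and lower for Nid2, against 3.44% of all genes called higher and 7.28% lower. Line 2838c3 was higher for Itga7, against 2.58% of all genes, and lower for 0 of 21, against 3.88%. Line 6499c4 was lower for Itga1, Itga7 and Lamb3, against 3.84%, and higher for 0 of 21, against 3.33%. Line 6419c5 was higher for Itgb5 and Nid2, against 8.87%, and lower for Itgb7, against 2.95%. For Itgb7 the log2 difference was -1.72 (SE 0.42, limma adjusted p = 0.0459) in 6419c5 and -1.80 (SE 0.42, limma adjusted p = 0.0533) in 6499c4. Both are set against a mean that holds 6694c2, and the Itgb7 values of these lines, given above, lie close together. The highest chains, Itga3, Itgb1 and Lama5, did not pass the F-test, with adjusted limma p-values of 0.11, 0.078 and 0.433.

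For KO against WT over the 4 lines, no gene of the 29 passed the adjusted threshold. In limma on log2(TPM + 1) with line as a block, 0 of 21 genes had an adjusted p under 0.05, against 0% of all 12900 genes. At an unadjusted p under 0.05, 4 of 21 were lower in KO, against 7.95% of all genes, and 0 of 21 were higher, against 0.86%. The 4 genes were Lamb2, Nid2, Lamc1 and Itgb6. With median-ratio scaling of the libraries the split over all genes moved from 1026 lower and 111 higher to 346 lower and 292 higher, and of the 4 genes Lamb2 and Nid2 were still counted. The share of all genes lower in KO was 2.69% with that scaling. Without line 6419c5 the count lower in KO was 2, against 5.43% of all genes. The WT and KO values overlapped for all 21 genes, while 1.34% of all genes were lower and 0.147% higher in KO with no overlap.

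Lamb2 fell short of the adjusted threshold with a mean of 114 ± 29.8 TPM in WT and 73.9 ± 11.8 TPM in KO (SD, n = 4), and a relative log2 difference of -0.45 (SE 0.13, limma unadjusted p = 0.00323, adjusted p = 0.542). Nid2 had a mean of 21.2 ± 20.0 TPM in WT and 10.4 ± 7.11 TPM in KO (SD, n = 4), and a relative log2 difference of -0.68 (SE 0.22, limma unadjusted p = 0.00749, adjusted p = 0.556). Its WT libraries alone range from 6.14 to 50.0 TPM, so its SD holds the difference between lines. Lamc1 had a mean of 149 ± 31.4 TPM in WT and 106 ± 18.9 TPM in KO (SD, n = 4), and a relative log2 difference of -0.34 (SE 0.14, limma unadjusted p = 0.0118, adjusted p = 0.556). Itgb6 had a mean of 4.06 ± 1.46 TPM in WT and 2.33 ± 2.28 TPM in KO (SD, n = 4), and a relative log2 difference of -0.62 (SE 0.30, limma unadjusted p = 0.0371, adjusted p = 0.561). Its difference was -0.30 without 6694c2. Its unadjusted p was not under 0.05 without 6694c2, 6499c4 or 6419c5, with no filter, or with median-ratio or quantile scaling. That of Lamc1 was not without 6419c5 or with median-ratio scaling. Without 6694c2 and 6419c5 together, those of Itgb6, Lamc1 and Nid2 were not. With no line block, those of Itgb6 and Nid2 were not. The p-values test the differences before the median is taken off. These were -0.60 for Lamb2, -0.83 for Nid2, -0.49 for Lamc1 and -0.77 for Itgb6. Relative to the median, the 95% intervals of Lamc1 (-0.68 to 0.00075) and Itgb6 (-1.33 to 0.086) held 0. Those of Lamb2 (-0.77 to -0.13) and Nid2 (-1.20 to -0.16) did not. Before the median is taken off, each of the 4 genes was lower in KO in 4 of 4 lines. The exact two-sided sign-flip test over lines gave p = 0.125 for each, the smallest value that 4 lines allow. The 4 genes were picked for being lower in these same libraries, so their shared direction adds no support. Itgb6 lay at 0.059 in 2838c3 relative to that line's median. Relative to each line's median, Lamb2, Lamc1 and Nid2 were lower in all 4 lines, which is 3 of 21 genes against 6.79% of all genes. In the other direction there were 0 of 21 against 6.43%.

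Itga7 had the largest positive difference among the 21 genes relative to the median. Its mean was 18.9 ± 15.3 TPM in WT and 35.96 ± 35.8 TPM in KO (SD, n = 4), with a relative log2 difference of 0.69 (SE 0.25, limma unadjusted p = 0.0668, adjusted p = 0.561). The p-value tests the difference before the median is taken off, which was 0.54. Relative to the median, the 95% interval was 0.098 to 1.27. Itga7 was higher in KO in 3 of 4 lines. Without 6694c2 the relative difference was 0.39. Itgb3 followed at 0.51, which was 0.086 without 2838c3, and the other genes outside the 4 named above lay between -0.17 for Itgb1 and 0.29 for Itgb7. None of the 7 alpha chains tested was lower or higher at an unadjusted limma p under 0.05, against 1 of 6 beta chains, 2 of 6 laminin chains and 1 of 2 nidogens. Over all genes 7.95% were lower and 0.86% higher, and counts this small do not set the families apart. The median relative difference of the 21 genes was 0.06, with 12 above 0 and 9 below, against 0 for all genes by construction.

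**Figure D4:**
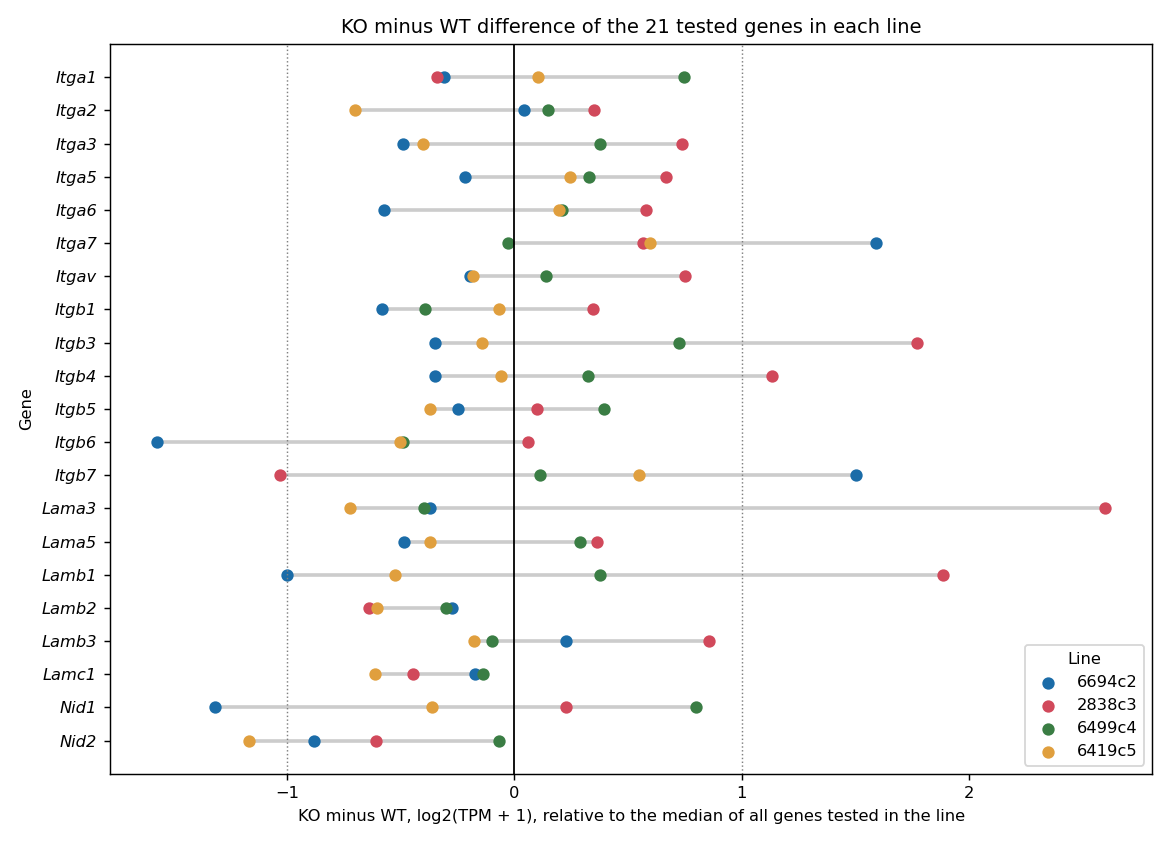
KO minus WT on the log2(TPM + 1) scale relative to the median of all genes in that line, for the 21 genes tested, with 1 point per line. Itga7 reaches 1.59 in 6694c2, Lama3 reaches 2.60 in 2838c3, and no point of 6499c4 passes 1 in either direction.

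Within single lines the genes went in different directions, and with 1 library per line and genotype these differences are descriptions with no test. In 6694c2, 17 of 21 genes were lower in KO than the line's median, against 50% of all genes, with a median of -0.35. Itga7 and Itgb7 stood apart from the rest of this line, at relative log2 differences of 1.59 and 1.502, which in TPM were 2.62-fold and 2.46-fold higher levels in KO. Itgb6 and Nid1 were lower by more than 2-fold, at -1.57 and -1.32. That makes 2 genes higher and 2 lower past 2-fold, against 2.79% and 3.17% of all genes, and Lamb1 lay just inside this limit at -0.999. With a pseudocount of 0.1 the count was 7, with Lama3, Lamb1 and Nid2 added, all 3 lower in KO. The KO library of this line is one of the 2 with a high share of unnamed RNA. The same 4 genes passed 2-fold when TPM were rescaled to protein-coding genes. That rescaling multiplies all genes of a library by the same factor, which the line's median largely takes out. Their passing there thus says nothing of the part of unnamed RNA.

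In 2838c3 the direction was the other: 16 of 21 genes were higher in KO than the line's median, against 50% of all genes, with a median of 0.36. Lamb1 was 3.55-fold higher in KO in TPM, Itgb3 3.36-fold and Itgb4 2.09-fold. Their relative log2 differences were 1.89, 1.77 and 1.13, and that of Lama3 was 2.60, from 0.15 to 5.59 TPM. Itgb7 was lower, at -1.03, from 2.89 to 0.799 TPM. These are 4 genes higher and 1 lower past 2-fold, against 5.89% and 6.47% of all genes. Fibronectin (Fn1), a ligand of Itga5 and Itgav looked up after its values were seen, stood at 199.9 (WT) and 40.6 TPM (KO) in 6694c2, 129 (WT) and 1054 TPM (KO) in 2838c3, 285 (WT) and 487 TPM (KO) in 6499c4, and 339.7 (WT) and 197 TPM (KO) in 6419c5. Its 2838c3 KO library was the highest and its 6694c2 KO library the lowest.

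In the other lines fewer genes passed 2-fold. In 6499c4, 0 of 21 genes passed 2-fold, against 1.12% higher and 1.26% lower of all genes, and the furthest were Nid1 at 0.80, Itga1 at 0.75 and Itgb3 at 0.72. In this line 13 genes were above the line's median, and the median of the 21 was 0.15. In 6419c5, Nid2 alone passed 2-fold, at -1.17, against 1.44% of all genes lower and 2.09% higher, and Lama3 joined it with a pseudocount of 0.1. Here 16 of 21 genes were below the line's median, with a median of -0.36, and the KO library is the other one with a high share of unnamed RNA. Whether the lines differ from each other in their response was not tested, since each has 1 library per genotype.

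Partners and neighbours of these genes were read from lists, and 0 genes of any list passed the adjusted threshold of limma in KO against WT. Of 21 focal adhesion genes, which link integrins to actin, Flna, Actn1 and Actn4 had the highest mean TPM, at 516, 437 and 293. At an unadjusted limma p under 0.05, 1 of the 21 was lower in KO (Parva, unadjusted p = 0.0159, adjusted p = 0.556) and 0 higher, against 7.95% and 0.86% of all genes. The list's median relative difference was 0.05. The median was -0.15 in 6694c2, 0.02 in 2838c3, 0.17 in 6499c4 and -0.01 in 6419c5. Between lines 6 of the 21 passed the F-test, against 16.9% of all genes: Tns1, Parva, Fermt2, Tln2, Tns3 and Parvb.

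Of 8 hemidesmosome genes and integrin-bound tetraspanins 7 were tested, and Cd63, Cd9 and Cd81 had the highest mean TPM, at 1329, 625 and 237. Their median relative difference was 0.16. At an unadjusted limma p under 0.05, 0 of 7 were lower or higher in KO, against 7.95% and 0.86% of all genes. Across lines 2 of 7 passed the F-test (Cd9 and Cd81), against 16.9% of all genes. Col17a1, the transmembrane collagen of hemidesmosomes, was not tested at 0.163 TPM or less. Of 6 genes listed as laminin receptors other than integrins, Rpsa, Sdc1 and Sdc4 were highest, at 2081, 477 and 292 TPM on average. Rpsa is the gene of ribosomal protein SA, so its level cannot be read as that of a receptor. Dystroglycan (Dag1) was the 1 of these 6 with an unadjusted limma p under 0.05 (unadjusted p = 0.0187, adjusted p = 0.556), at 197 ± 45.2 TPM in WT and 128 ± 38.6 TPM in KO (SD, n = 4). Over all genes 7.95% were lower in KO at that threshold. The list's median relative difference was -0.06, and 1 of 6 passed the F-test across lines (Sdc2), against 16.9% of all genes. Sdc2 entered the test with exactly 4 libraries at 1 TPM or more, those of 2838c3 and 6419c5. A difference between lines was thus built into its being tested.

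Of 12 other basement membrane genes 9 were tested, led by Col4a1, Col18a1 and Npnt with mean levels of 294, 225 and 223 TPM. Their median relative difference was -0.10. At an unadjusted limma p under 0.05, 0 of 9 were lower or higher in KO, against 7.95% and 0.86% of all genes. Across lines 5 of 9 passed the F-test, against 16.9% of all genes, namely Hspg2, Agrn, Col18a1, Col4a2 and Sparc. Of 20 integrin ligands other than laminins 13 were tested, led by Spp1, Ccn1 and Adam9 with 6382, 666 and 346 TPM. Their median relative difference was 0.20 over the 4 lines, with line medians of -0.62 in 6694c2, 0.88 in 2838c3, 0.46 in 6499c4 and -0.23 in 6419c5. At an unadjusted limma p under 0.05, 0 of 13 were lower or higher in KO, against 7.95% and 0.86% of all genes. The F-test across lines was passed by 5 of 13, against 16.9% of all genes: Vcam1, Ccn1, Tgfb1, Icam1 and Ltbp1.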

How the data were processed

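The values deposited by the authors are TPM, in 1 table with a column for each of 8 libraries. The making of these TPM, with the gene lengths and the annotation behind them, is not stated in the sources used here. The submitters' processing notes list featureCounts 2.1.1, STAR 2.7.11b, DESeq2 2.11.40.8 and cutadapt 5.1, with build mm39. The labels name a NovaSeq, while the design text names a HiSeq and stranded libraries. Added spike-in RNA was left aside.

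limma 3.58.1 (R 4.3.3) was run on log2(TPM + 1) with a mean-variance trend, genotype as a term, and line as a block, since both genotypes come from the same line. Genes at 1 TPM or more in at least 4 libraries were tested, 12900 in all, with Benjamini-Hochberg adjustment over all of them and a threshold of 0.05. The same fit gave the F-test on lines and each line against the mean of the other 3. The step was tested on simulated data. GENCODE vM39 on GRCm39 gave positions and names, for 45505 identifiers, and 3810 stayed unnamed. Promoters come from the RefSeq table, chosen after values were seen. Planned protein sequence features were not analysed here.

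The members and lists were chosen with earlier results of these data known. All 29 genes are accounted for, with values in every library for the 19 that reach 10 TPM and ranges for the others. From the other lists the 3 of highest mean TPM are named where none passed the adjusted threshold. Other genes named were chosen after their values were seen. A list of further subunits is not reported here. Settings tried beside this were a pseudocount of 0.1, no filter or a filter at 5 TPM, median-ratio and quantile scaling, rescaling to protein-coding genes, no trend, robust variance, no line block, no genotype term, each line left out in turn, and 6694c2 and 6419c5 left out together. Python 3.11.15, pandas 2.3.3, numpy 2.4.6 and matplotlib 3.10.9 made tables and figures. The number of lines, 4 per genotype, limits the precision.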

Additional observations from a re-analysis of the deposited data

Results flagged for a closer look

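Each tested gene was looked at in the 4 WT and in the 4 KO libraries, 42 groups in all, for a library far from the other 3 (Dixon's test for 4 samples). There were 2 such cases, and chance gives about 1 in 20 groups. Itga2 stood at 152 TPM in the WT library of 6694c2, against 85.9 to 86.9 TPM in the other WT libraries. Itgb7 stood at 80.3 TPM in the KO library of 6694c2, against 0.799 to 1.2 TPM in the other KO libraries. The WT library of 6694c2 also lay far above the other WT libraries for Itgb7, at 32.6 TPM against 0.676 to 2.89 TPM. It was not flagged. How far off a library stands depends on the scale of the values, so the 2 cases are not a full list of outlying libraries. Itgb7 also moved in opposite directions in 2 lines, with relative log2 KO minus WT differences of 1.502 in 6694c2 and -1.03 in 2838c3. That difference between lines was not tested, since each line has 1 library per genotype.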

How the results depend on the processing

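No gene of the 29 passed the adjusted limma threshold for KO against WT in any of the settings tried. The count lower in KO at an unadjusted limma p under 0.05 moved from 4 to 2 with median-ratio scaling (Nid2 and Lamb2; 2.69% of all genes), to 1 without lines 6694c2 and 6419c5 (Lamb2; 5.14%), and between 2 and 6 with 1 line left out (4.49% to 11.5%). Without the replicate block, which uses the pairing of libraries by line, it was 2 (Lamc1 and Lamb2), while the share of all genes lower fell from 7.95% to 1.36%, and no adjusted call changed. The count higher in KO moved from 0 to 1 with median-ratio scaling and to 1 with quantile normalization (Itga7 in both), to 2 without lines 6694c2 and 6419c5 (Itgb3 and Lamb1), and between 0 and 1 with 1 line left out, while the genes higher over all genes numbered 111 as reported, then 292, 322, 362, and 83 to 170. The count of genes that differed between lines moved from 6 (16.9% of all genes) to 3 with no filter on low values (6.47%), to 3 without both lines (8.19%), and between 2 and 11 with 1 line left out (5.83% to 29.1%), in step with the share over all genes. With a pseudocount of 0.1 the genes past 2-fold within a line rose in number from 4 to 7 in 6694c2 and from 1 to 2 in 6419c5. Across lines the F-test was passed by Itga7 in 13 of 14 alternatives, Nid2 in 12 of 14, Lamb3 and Itgb5 in 11 of 14 and Itga1 in 10 of 14. Itgb7 could be tested only where 6694c2 was kept and the filter was not raised to 5 TPM, so its passing there says nothing of stability. Among the KO minus WT values of single genes under alternatives, 268 kept their direction and 21 did not. With no filter on low values Itga1 stood at -0.046 and Itga3 at -0.040. Their differences before the median is taken off, -0.093 and -0.087, do not depend on the filter, while that median moved from -0.148 to -0.047. Without lines 6694c2 and 6419c5 Itga2 stood at 0.26, Itgb5 at 0.25, Lama5 at 0.34 and Nid1 at 0.52. With 1 line left out the relative log2 difference ran from -0.18 to 0.19 for Itga1, -0.16 to 0.18 for Itga2, -0.16 to 0.25 for Itga3, -0.047 to 0.34 for Itga6, -0.069 to 0.25 for Itgav, -0.017 to 0.48 for Itgb4, -0.17 to 0.080 for Itgb5, -0.49 to 0.61 for Lama3, -0.18 to 0.11 for Lama5, -0.37 to 0.59 for Lamb1, -0.0069 to 0.33 for Lamb3 and -0.48 to 0.23 for Nid1. Within these ranges Itga3 stood at -0.050 without 6499c4, Itgb5 at 0.052 without 6694c2 and Lama5 at 0.056 without 6419c5. The causes of the other changes were not tested. Lamb2, Lamc1, Nid2, Itgb6, Itga7, Itgb7, Itga5, Itgb1 and Itgb3 kept their direction under all alternatives run on them. For Itgb7 all of these held 6694c2, the line with its difference of 1.502, so its direction without that line is not known. Depth is not known, so low values cannot be given a counting error.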

Other observations

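Itgb1 was the highest beta chain in each library, but the balance between it and its alpha partners was not the same in all lines. The ratio of Itga3 to Itgb1 TPM was 0.807 (WT) and 0.861 (KO) in 6694c2, 0.483 (WT) and 0.635 (KO) in 2838c3, 1.74 (WT) and 2.97 (KO) in 6499c4 and 0.566 (WT) and 0.448 (KO) in 6419c5. Line 6499c4 was the only one in which Itga3 exceeded Itgb1. The summed TPM of the alpha chains that pair with Itgb1, over Itgb1, was 1.63 (WT) and 2.09 (KO) in 6694c2, 1.01 (WT) and 1.23 (KO) in 2838c3, 2.41 (WT) and 4.01 (KO) in 6499c4 and 1.12 (WT) and 1.01 (KO) in 6419c5. It was at or above 1 in all 8 libraries, and both 6499c4 libraries were above the 6 others. The sum holds all 11 listed alpha chains, among them Itga6 and Itgav, which also pair with other beta chains.

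The ratio of Nid1 to Nid2 was 34.2 (WT) and 31.0 (KO) in 6694c2, 6.93 (WT) and 12.8 (KO) in 2838c3, 5.84 (WT) and 10.9 (KO) in 6499c4 and 3.82 (WT) and 6.86 (KO) in 6419c5, higher in KO in 3 of 4 lines. These are values of single libraries with no test.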
